A study of Mus musculus with 9 samples.

Results

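Cholesterol synthesis and fatty acid synthesis are switched on together by the sterol regulatory element-binding proteins (SREBPs). A set of 31 mouse genes of this programme and of sterol transport was followed through 9 RNA-seq libraries of cardiomyocytes, the heart's contractile cells. The genes were chosen by symbol, as enzymes, regulators and sterol transporters, and each symbol was looked up in the mm10 gene annotation. All 31 matched exactly 1 identifier among the 55487 in the count table, and all 31 passed the filter on low counts that left 15633 genes for testing. The libraries formed 3 groups of 3. In the OE_LncFirre group the long noncoding RNA Firre was overexpressed from an adeno-associated virus of serotype 9 (AAV9-Firre). The VC group received AAV9-VC, which the titles call a negative control, so OE_LncFirre and VC share the AAV9 serotype. The NC group, titled a blank control, carries no vector in its labels. All groups were labelled as cardiomyocytes of Mus musculus, and no strain, age, dose, promoter or time after the vector was given in the sources used here. The libraries are called biological replicates without a statement that they came from separate animals or cultures, so every p-value below reflects spread among these particular libraries, some or all of which may be technical.

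Cells make cholesterol from acetyl-CoA through the mevalonate pathway, which ends in farnesyl pyrophosphate, and through a sterol branch that leads from squalene and lanosterol to cholesterol. SREBP-2, the product of Srebf2, mainly drives the cholesterol genes, and SREBP-1, the product of Srebf1, mainly drives the fatty acid genes. Both are held in the endoplasmic reticulum with the escort protein Scap while Insig proteins bind Scap, and they are released for cleavage when sterols are scarce. Oxysterols act the other way through the liver X receptors (LXRs), which raise the exporters Abca1 and Abcg1 and also Srebf1. In the heart, cholesterol is a component of the sarcolemma, and most energy comes from burning fatty acids that are taken up from the blood.

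The transgene label was checked first. Firre had 62.9, 69.7 and 62.6 CPM (counts scaled to TMM-adjusted library size) in OE_LncFirre, against 32.5, 34.4 and 32.7 CPM in VC and 34.0, 37.2 and 30.2 CPM in NC. The 3 OE_LncFirre libraries stood above all others, and edgeR's quasi-likelihood F test gave a log2 fold change of 0.97 (SE 0.07, adjusted p = 4.74e-13) against VC and 0.94 (SE 0.07, adjusted p = 1.07e-12) against NC. The libraries held 15591542 to 22697016 counts in genes, of which 27598 to 50396 fell on the 31 sterol and lipid genes. Marker genes of other heart cell types differed between the groups as well. All 10 cardiomyocyte markers were detected in every library. They rose in OE_LncFirre against VC, and their summed level was 53379 to 56203 CPM in OE_LncFirre, 33749 to 36452 CPM in VC and 33792 to 34899 CPM in NC. All 10 macrophage markers fell, with a summed level of 11.6 to 12.9 CPM in OE_LncFirre, 70.6 to 76.6 CPM in VC and 90.9 to 104.7 CPM in NC, and C1qa, a complement subunit gene, was at 0 counts throughout OE_LncFirre. All 10 fibroblast markers and all 9 endothelial markers fell too, the fibroblast sum being 4554 to 5096 CPM in OE_LncFirre, 9898 to 10082 CPM in VC and 9898 to 10345 CPM in NC. The endothelial sum was 284.9 to 296.1 CPM in OE_LncFirre, 770.5 to 786.0 CPM in VC and 833.4 to 867.4 CPM in NC. Of 3 adipocyte markers that could be tested 2 fell, and of 5 Schwann cell markers 4 fell. The share of counts on mitochondrially encoded genes was 7.07% to 8.07% in OE_LncFirre, 5.89% to 6.62% in VC and 6.23% to 6.80% in NC, so OE_LncFirre stood above the controls. With those genes left out of the fit, the calls among the 31 genes numbered the same in each comparison and direction. In such bulk samples fewer cells of a type and less RNA per cell cannot be told apart, and the part of these markers in the results below was not tested.

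A single library stood apart for the 31 genes. VC replicate 2 held 0.241% of its counts in the 31 genes, against 0.188% in each of the other VC libraries, 0.146% to 0.15% in OE_LncFirre and 0.174% to 0.180% in NC. It was the highest of the 3 VC libraries for 28 of the 31 genes, where the same was true of 33.5% of all genes tested, and the highest of all 9 libraries for 25 of the 31, against 8.45% of all genes. Its median distance from the mean of the other VC libraries was 0.33 on the log2 scale over the 31 genes and -0.00 over all genes. The excess was 1.77-fold for Scd2, 1.55-fold for Scd1, 1.48-fold for Insig1 and for Idi1, and 2.64-fold for Fdps. Mvk (1.005-fold) and Mvd (1.03-fold) were near the other VC libraries, and Scap was lower (0.914-fold). The library was highest of the VC libraries for 11 of 11 genes from squalene to cholesterol, 6 of 6 fatty acid synthesis genes, 3 of 3 transport genes, 5 of 7 mevalonate genes and 3 of 4 SREBP control genes. It was highest for 5 of 10 fibroblast, 5 of 9 endothelial, 3 of 10 macrophage and 2 of 10 cardiomyocyte markers. The main results for the 31 genes that rest on the VC group are therefore given with and without this library. It was singled out by its values for these same genes, and leaving it out can narrow their estimated spread. Adjusted p-values and calls without it are thus descriptive.

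**Figure D1:**
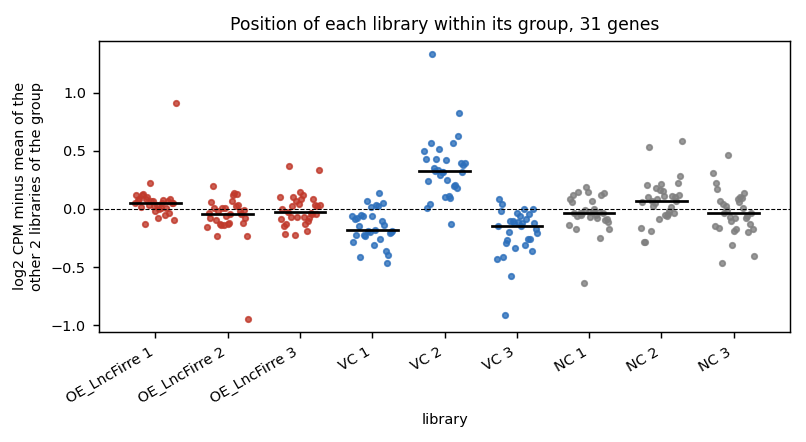
Distance of each library from its group for the 31 genes: the y axis is log2 CPM minus the mean of the other 2 libraries of the same group, each point is a gene, the black bars are medians, and groups run OE_LncFirre, VC, NC. VC replicate 2 has a median of 0.33, and the medians of the other 8 libraries lie between -0.18 and 0.07.

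In OE_LncFirre against VC, which sets AAV9-Firre beside AAV9-VC, 20 of the 31 genes fell, 1 rose and 10 did not pass the adjusted p threshold of 0.05. Of all genes tested 56% passed in this comparison, 28.4% lower and 27.5% higher, so the 64.5% of the 31 genes that fell stand against a background of 28.4%. The 31 genes were chosen with earlier results of these data known, so this contrast is descriptive. The median log2 fold change of the 31 genes was -0.31, against 0.00 over all genes, whose quartiles were -0.33 and 0.32. All 3 OE_LncFirre libraries were below all 3 VC libraries for 18 of the 31 genes, which held for 31.5% of all genes, and above them for 1, which held for 30.8%. Without VC replicate 2, 14 genes fell and 2 rose, with a median of -0.16, where 26.1% of all genes fell and 25% rose. The 6 genes no longer called lower without that library were Fdps, Lss, Cyp51, Msmo1, Sc5d and Abcg1, and Hmgcs1 was then called higher. The genes of sterol transport, fatty acid synthesis and SREBP control moved most, with medians of -1.11, -0.67 and -0.43 (-0.99, -0.56 and -0.39 without VC replicate 2). The mevalonate genes and those from squalene to cholesterol both had a median of -0.06 (0.09 and 0.04 without VC replicate 2).

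**Figure D2:**
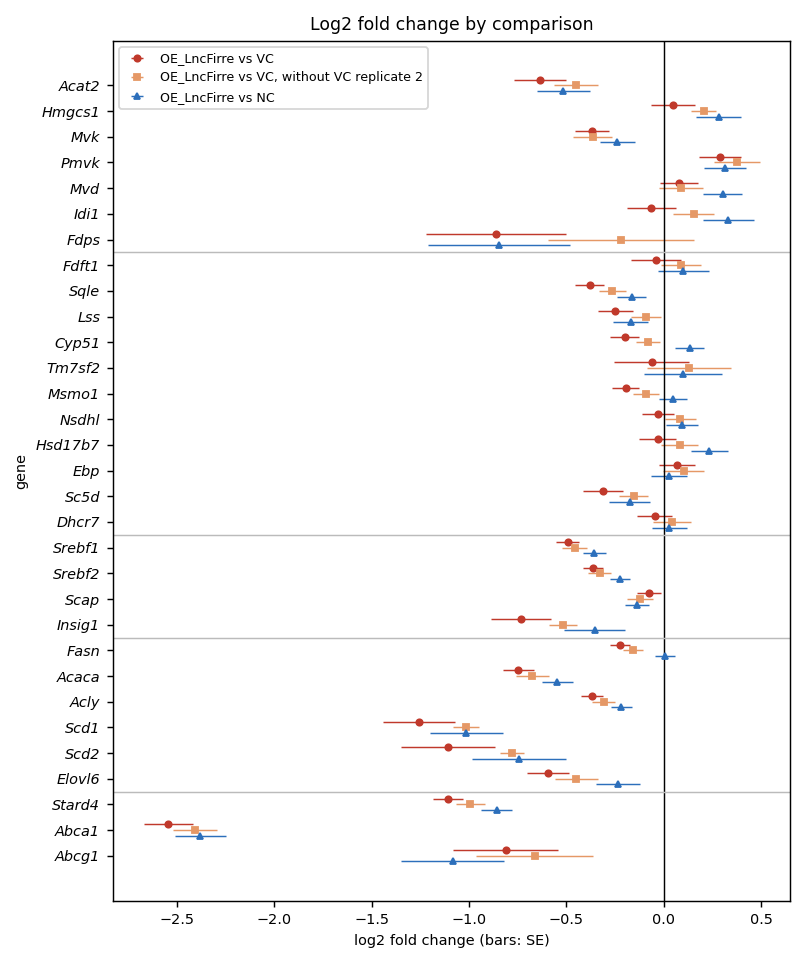
Log2 fold changes of the 31 genes with their SE (bars), by role from mevalonate (top) to transport (bottom): OE_LncFirre against VC (red circles), the same without VC replicate 2 (orange squares) and OE_LncFirre against NC (blue triangles). Abca1 lies at or beyond -2.38 in all 3, while the genes from Fdft1 to Dhcr7 lie between -0.38 and 0.23.

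Of the 31 genes, 24 had a promoter window in the RefSeq promoter table (build GRCm38.p6), searched here over the 250 bases before each start and on both strands. A sterol regulatory element written TCACNCCAC was found for 1 gene, Hmgcs1, and in 1.05% of the 32851 promoter windows of the table. Its shorter core CACNCCA, which every TCACNCCAC match also holds, was found for 5 of 24 genes (20.8%), namely Acat2, Hmgcs1, Msmo1, Insig1 and Srebf2, against 15.6% of all windows. A CCAAT box, the usual site of the SREBP partner NF-Y, was found for 18 genes (75%) against 33.8% of windows. A GC box GGGCGG, the usual site of the partner Sp1, was found for 20 genes (83.3%) against 32.7%, and the E-box CACGTG for 6 (25%) against 6.02%. An exact direct repeat of AGGTCA with 4 bases between, the idealised LXR element, is in 0.0152% of windows, so its count of 0 of 24 genes says nothing of LXR elements, whose letters usually vary. These matches are descriptions of letters in short windows. Some genes had several windows, the 24 genes having 30 in all, and a gene was counted if any of its windows matched. The background was counted per window, so the percentages set side by side are in unlike units, which can raise that of the genes. It was also not restricted to genes that passed the low-count filter, as all 31 genes did. Whether the differences are particular to this programme was therefore not tested. The windows of 4 genes are shown because they differ in both letters and response: Hmgcs1, which was not called against VC, holds the full element. Srebf2 and Insig1 fell, and Abca1 fell furthest. Each is given 5′ to 3′ along the gene's strand and ends before the gene's first base in GENCODE M21, with TCACNCCAC, CACNCCA and CACGTG matches in capitals. The windows are chr13:119690101-119690350 (+) for Hmgcs1, chr15:82147019-82147180 (+) for Srebf2, chr5:28071162-28071362 (+) for Insig1 and chr4:53159896-53160145 (-) for Abca1.
Hmgcs1: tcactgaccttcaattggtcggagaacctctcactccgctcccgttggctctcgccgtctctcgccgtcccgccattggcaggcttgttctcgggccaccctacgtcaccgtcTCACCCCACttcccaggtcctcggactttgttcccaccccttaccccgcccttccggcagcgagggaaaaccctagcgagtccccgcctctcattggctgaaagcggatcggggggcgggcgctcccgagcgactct
Srebf2: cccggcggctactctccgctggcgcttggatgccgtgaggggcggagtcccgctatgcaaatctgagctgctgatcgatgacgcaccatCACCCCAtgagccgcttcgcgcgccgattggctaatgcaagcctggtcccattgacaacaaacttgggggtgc
Insig1: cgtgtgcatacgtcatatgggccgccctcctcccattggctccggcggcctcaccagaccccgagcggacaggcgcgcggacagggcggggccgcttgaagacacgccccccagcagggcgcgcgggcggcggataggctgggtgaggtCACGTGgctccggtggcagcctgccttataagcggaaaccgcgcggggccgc
Abca1: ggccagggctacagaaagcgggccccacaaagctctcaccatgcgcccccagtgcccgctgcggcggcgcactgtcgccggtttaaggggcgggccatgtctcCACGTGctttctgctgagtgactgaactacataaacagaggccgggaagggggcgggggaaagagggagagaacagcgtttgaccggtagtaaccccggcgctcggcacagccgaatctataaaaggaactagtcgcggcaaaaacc
In these windows the capitals of Hmgcs1 are its sterol regulatory element, those of Srebf2 a core element, and those of Insig1 and Abca1 an E-box. The core element of Insig1 lies 8 bases before its RefSeq start, downstream of the stretch shown.

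The sterol transporters had the lowest median of the roles, and Abca1 fell most of the 31 genes. Abca1, which moves cholesterol and phospholipid out of the cell onto apolipoprotein A-I, had 5.97, 5.60 and 7.31 CPM in OE_LncFirre, against 33.1, 43.1 and 33.5 CPM in VC and 30.8, 37.0 and 29.9 CPM in NC. The 3 OE_LncFirre libraries lay far below the other 6. The log2 fold change was -2.55 (SE 0.13, adjusted p = 1.02e-12) against VC, -2.41 (SE 0.11, adjusted p = 7.83e-17) against VC without replicate 2, and -2.38 (SE 0.13, adjusted p = 3.73e-12) against NC. Abca1 lies on chromosome 4 (53030787 to 53159895, mm10). Stard4, a soluble carrier that moves cholesterol between membranes, had 27.0, 25.4 and 26.7 CPM in OE_LncFirre, against 51.3, 65.4 and 53.4 CPM in VC and 45.7, 50.4 and 46.9 CPM in NC. Its groups did not overlap either. Its log2 fold change was -1.11 (SE 0.08, adjusted p = 5.60e-13) against VC, -0.99 without VC replicate 2, and -0.86 (SE 0.08, adjusted p = 1.90e-10) against NC. Abcg1, which exports cholesterol to high-density lipoprotein, was a low gene, with 2.48, 0.993 and 1.62 CPM in OE_LncFirre, 2.67, 3.53 and 2.65 CPM in VC and 3.19, 4.58 and 2.86 CPM in NC. Its highest OE_LncFirre library came close to the lowest VC library. It fell by 0.81 against VC (SE 0.27, adjusted p = 0.0113) and by 1.09 against NC (SE 0.27, adjusted p = 9.87e-04). The call against VC was lost without VC replicate 2 (log2 fold change -0.66, adjusted p = 0.0686) and without OE_LncFirre replicate 2 (-0.52, adjusted p = 0.101). Both exporters are also made in macrophages, whose markers had a median log2 fold change of -5.06 against VC.

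**Figure D3:**
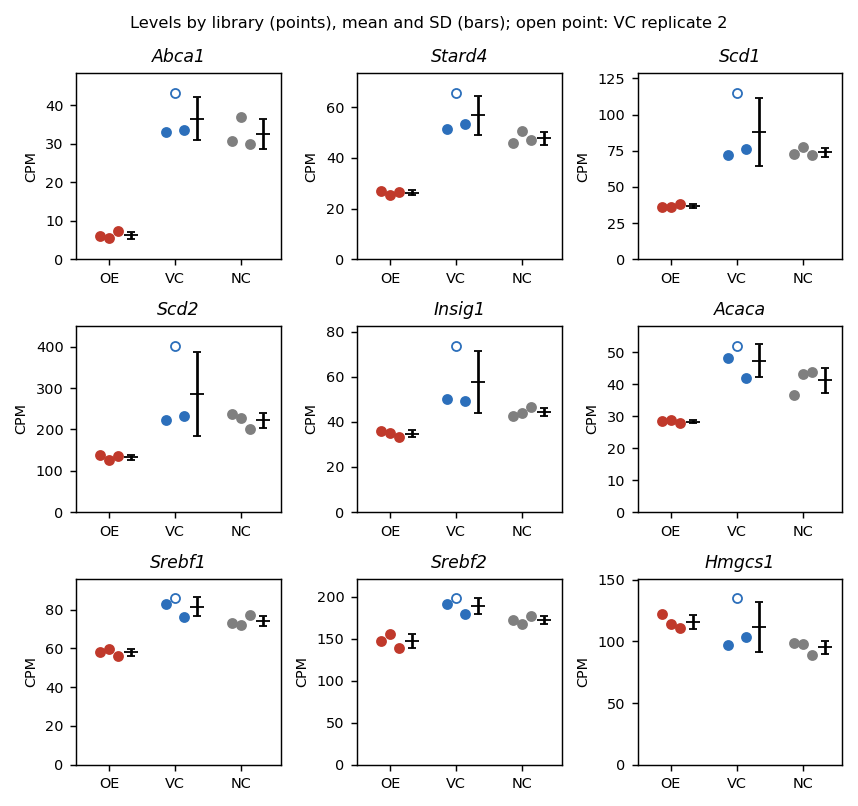
CPM of 9 genes in each library (points) with the mean and SD of each group (black bars), groups running OE_LncFirre (OE), VC and NC and the y axes starting at 0; the open point is VC replicate 2. For all genes shown but Hmgcs1 the OE_LncFirre libraries lie below every VC and NC library.

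All 6 fatty acid synthesis genes fell in OE_LncFirre against VC, with and without VC replicate 2, and 4 of the 6 fell against NC. The shares of all genes that fell were 28.4% against VC, 26.1% without VC replicate 2, and 28.9% against NC. Scd1 and Scd2 encode stearoyl-CoA desaturases, which put a double bond into saturated acyl chains, and lie near each other on chromosome 19 (44394455 to 44407879 and 44293674 to 44306864, mm10). Scd1 had 36.1, 35.9 and 38.2 CPM in OE_LncFirre, against 72.4, 114.7 and 75.9 CPM in VC and 72.8, 77.7 and 71.9 CPM in NC. Scd2, the more abundant form, had 138.3, 125.7 and 134.8 CPM in OE_LncFirre, against 222.4, 402.5 and 233.4 CPM in VC and 236.5, 228.5 and 202.0 CPM in NC. The OE_LncFirre libraries of both genes lay below every control library, and VC replicate 2 lay far above the rest. Scd1 changed by a log2 fold change of -1.26 (SE 0.18, adjusted p = 0.00108) against VC, -1.02 (SE 0.07, adjusted p = 1.34e-13) without VC replicate 2, and -1.01 (SE 0.19, adjusted p = 0.00335) against NC. Scd2 changed by -1.11 (SE 0.24, adjusted p = 0.00778) against VC, -0.78 (SE 0.06, adjusted p = 1.19e-11) without VC replicate 2, and -0.74 (SE 0.24, adjusted p = 0.0388) against NC. All groups share a single estimate of the spread, and the call of Scd2 against NC was lost whenever any OE_LncFirre or NC library was left out (-0.81 to -0.69, adjusted p = 0.0633 to 0.113). It was kept at -0.74 with any VC library left out of the common fit (adjusted p = 3.47e-12 to 0.0428). The desaturase genes are close paralogs, so reads shared between them may have been dropped or split by the counting.

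Acaca, acetyl-CoA carboxylase, makes the malonyl-CoA from which fatty acids are built. It had 28.3, 28.7 and 27.7 CPM in OE_LncFirre, against 48.3, 52.0 and 41.8 CPM in VC and 36.6, 43.2 and 43.7 CPM in NC. The OE_LncFirre libraries lay well below all VC and NC libraries, and the log2 fold change was -0.75 (SE 0.08, adjusted p = 2.19e-09) against VC, -0.67 without VC replicate 2 and -0.55 (SE 0.08, adjusted p = 9.43e-07) against NC. Acly, ATP citrate lyase, which supplies cytosolic acetyl-CoA, averaged 108.2 ± 2.9 CPM in OE_LncFirre, 139.7 ± 10.6 CPM in VC and 125.8 ± 6.0 CPM in NC (SD, n = 3 each). It fell by 0.37 against VC (0.31 without replicate 2) and by 0.22 against NC on the log2 scale. Elovl6, which lengthens palmitate to stearate, averaged 13.6 ± 0.31 CPM in OE_LncFirre, 20.5 ± 3.8 CPM in VC and 16.0 ± 1.5 CPM in NC (SD, n = 3 each). It fell by 0.59 against VC (0.45 without replicate 2), while -0.24 against NC did not pass (adjusted p = 0.0738), and did with VC replicate 1 or 2 left out of the common fit (adjusted p = 0.0475 and 0.0464). Fasn, fatty acid synthase, had 227.0, 246.0 and 224.1 CPM in OE_LncFirre, 258.4, 296.3 and 259.9 CPM in VC and 228.5, 233.4 and 232.4 CPM in NC. Its OE_LncFirre libraries lay below the VC libraries and spread across the NC libraries. Fasn fell by 0.22 against VC (SE 0.05, adjusted p = 5.24e-04; 0.16 without replicate 2), and its log2 fold change against NC was 0.01 (SE 0.05, adjusted p = 0.936).

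Of the 4 SREBP control genes, 3 fell against VC and 2 against NC, where 28.4% and 28.9% of all genes fell. A set of 4 genes is too small for these shares to be told apart. Srebf1, on chromosome 11, had 57.9, 59.7 and 56.1 CPM in OE_LncFirre, against 82.7, 85.8 and 76.2 CPM in VC and 73.3, 72.3 and 77.1 CPM in NC. Srebf2, on chromosome 15, had 147.6, 155.7 and 138.9 CPM in OE_LncFirre, against 191.3, 197.9 and 179.1 CPM in VC and 172.0, 167.4 and 177.2 CPM in NC. For both genes the OE_LncFirre libraries lay below every VC and NC library. Srebf1 fell by 0.49 (SE 0.06, adjusted p = 1.72e-08) against VC, 0.46 without VC replicate 2, and by 0.36 (SE 0.06, adjusted p = 5.95e-06) against NC. Srebf2 fell by 0.36 (SE 0.05, adjusted p = 6.03e-07) against VC, 0.33 without VC replicate 2, and by 0.22 (SE 0.05, adjusted p = 5.35e-04) against NC. Insig1, which retains Scap and is itself an SREBP target, had 36.0, 35.04 and 33.1 CPM in OE_LncFirre, against 50.2, 73.7 and 49.1 CPM in VC and 42.7, 44.1 and 46.4 CPM in NC. These groups did not overlap either. Insig1 fell by 0.73 (SE 0.15, adjusted p = 0.0043) against VC and 0.52 (SE 0.07, adjusted p = 3.80e-07) without VC replicate 2, while -0.36 against NC did not pass (adjusted p = 0.0941). With VC replicate 1, 2 or 3 left out of the common fit, the same -0.36 against NC had an adjusted p of 0.0481, 2.85e-05 or 0.0239. Scap averaged 74.9 ± 5.9 CPM in OE_LncFirre, 79.1 ± 4.8 CPM in VC and 82.6 ± 3.3 CPM in NC (SD, n = 3 each), and passed in neither comparison. Its log2 fold change was -0.08 against VC, -0.12 without VC replicate 2, and -0.14 against NC (adjusted p = 0.0569). The last passed without OE_LncFirre replicate 2 (-0.18, adjusted p = 0.0286).

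The ratio of the 2 SREBP genes was compared within libraries, where scaling drops out. The log2 ratio of Srebf1 to Srebf2 CPM was -1.35 ± 0.04 in OE_LncFirre, -1.22 ± 0.01 in VC and -1.21 ± 0.02 in NC (SD, n = 3 each). The OE_LncFirre ratios lay below all VC and NC ratios, the nearest libraries being at -1.31 in OE_LncFirre and -1.23 in VC and in NC. The group mean was lower by 0.13 in each case, and the two-sided exact permutation test gave p = 0.1, the smallest that 3 against 3 can give. The log2 ratio of Scd1 to Scd2 CPM was -1.86 ± 0.07 in OE_LncFirre, -1.68 ± 0.11 in VC and -1.58 ± 0.11 in NC (SD, n = 3 each). The difference was -0.17 against VC (exact permutation p = 0.2) and -0.27 against NC (exact permutation p = 0.1). VC replicate 2 had a ratio of -1.81, within the range of the OE_LncFirre libraries, and without it the difference from VC was -0.24. A total of 6 such ratio comparisons were made.

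The mevalonate genes moved in both directions. Against VC, Acat2, Mvk and Fdps fell and Pmvk rose; against NC the same 3 fell, and Pmvk, Mvd and Idi1 rose. Acat2, the thiolase that joins acetyl-CoA units at the start of the pathway, had 14.1, 12.8 and 14.5 CPM in OE_LncFirre, against 20.4, 26.4 and 17.2 CPM in VC and 18.4, 18.1 and 22.6 CPM in NC. Its OE_LncFirre libraries lay below all VC and NC libraries, with a log2 fold change of -0.64 (SE 0.13, adjusted p = 5.69e-04) against VC, -0.45 without VC replicate 2 and -0.52 (SE 0.14, adjusted p = 0.00369) against NC. A paralog, Acat3, lies in the same genome, and reads that both share are uncertain. Hmgcs1, which makes the HMG-CoA that feeds the pathway, had 121.8, 113.7 and 111.1 CPM in OE_LncFirre, 96.9, 134.7 and 103.4 CPM in VC and 98.8, 97.5 and 88.8 CPM in NC. The OE_LncFirre libraries stood above all NC libraries and above 2 of the 3 VC libraries, with VC replicate 2 highest of all. Its log2 fold change was 0.05 (SE 0.11, adjusted p = 0.752) against VC, and 0.20 (SE 0.06, adjusted p = 0.00796) without VC replicate 2. Against NC it was 0.28 (SE 0.11, adjusted p = 0.0657), and the adjusted p was 0.00654, 1.10e-04 or 0.0448 with VC replicate 1, 2 or 3 left out of the common fit.

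Mvk and Pmvk encode the kinases that phosphorylate mevalonate in turn, and they moved in opposite directions. Mvk averaged 18.6 ± 0.65 CPM in OE_LncFirre, 23.9 ± 0.97 CPM in VC and 21.96 ± 2.6 CPM in NC (SD, n = 3 each), and fell by 0.37 against VC (SE 0.09, adjusted p = 6.71e-04), with 0.37 also without VC replicate 2. Its fall of 0.24 against NC (adjusted p = 0.0238) was lost without OE_LncFirre replicate 2 or 3 or NC replicate 1 or 3 (-0.23 to -0.16, adjusted p = 0.0613 to 0.160). Pmvk had 15.8, 15.6 and 14.2 CPM in OE_LncFirre, against 11.2, 13.8 and 12.2 CPM in VC and 12.9, 10.7 and 13.2 CPM in NC. All 3 OE_LncFirre libraries exceeded the other 6, if narrowly. Pmvk rose by 0.29 against VC (SE 0.11, adjusted p = 0.0215), 0.37 without VC replicate 2, and by 0.31 against NC (SE 0.11, adjusted p = 0.0142). The call against VC was lost without OE_LncFirre replicate 1 or 2 or VC replicate 1 or 3 (0.22 to 0.28, adjusted p = 0.0594 to 0.126), and that against NC without NC replicate 2 (0.22, adjusted p = 0.120). Mvd, which makes isopentenyl pyrophosphate, averaged 15.9 ± 1.5 CPM in OE_LncFirre, 15.1 ± 0.49 CPM in VC and 12.9 ± 1.1 CPM in NC (SD, n = 3 each). Idi1, the isomerase that acts next, averaged 17.1 ± 1.0 CPM in OE_LncFirre, 17.9 ± 4.4 CPM in VC and 13.6 ± 0.94 CPM in NC (SD, n = 3 each). Both were higher than NC in every OE_LncFirre library, Mvd by 0.30 (adjusted p = 0.0116) and Idi1 by 0.33 (adjusted p = 0.0374), but not called against VC (0.08 and -0.06, or 0.09 and 0.15 without VC replicate 2). The calls against NC were lost without OE_LncFirre replicate 2 or NC replicate 3 for Mvd (0.24 and 0.25, adjusted p = 0.0706 and 0.0609). For Idi1 they were lost without OE_LncFirre replicate 1 or 2 or any NC library (0.28 to 0.37, adjusted p = 0.0640 to 0.126).

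Fdps, farnesyl pyrophosphate synthase, was the lowest of the 31 genes, with only 17 to 59 counts per library. In this annotation 945 of the 1237 exonic bases (76.4%) of its main transcript, Fdps-201, are shared with a readthrough gene on the same strand, Gm43738, which had 0 counts in all libraries. Its values, 0.962, 0.858 and 0.888 CPM in OE_LncFirre, 1.18, 2.78 and 0.918 CPM in VC and 1.53, 2.05 and 1.26 CPM in NC, therefore may not measure the gene's full output. The OE_LncFirre libraries overlapped the VC libraries and lay below the NC libraries. Fdps changed by -0.86 against VC (SE 0.36, adjusted p = 0.0428) and by -0.22 (adjusted p = 0.655) without VC replicate 2, and by -0.85 against NC (SE 0.36, adjusted p = 0.0494). Leaving out any 1 OE_LncFirre library also ended the call against VC (-0.91 to -0.82, adjusted p = 0.0744 to 0.106), and leaving out any of them or NC replicate 1 or 2 ended that against NC (-0.89 to -0.62, adjusted p = 0.0723 to 0.226).

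From squalene to cholesterol the changes were small. Of these 11 genes 5 fell against VC, 1 of which, Sqle, was still called without VC replicate 2, and against NC 0 fell and 1 rose. Among all genes 28.4% fell against VC (26.1% without VC replicate 2), and against NC 28.9% fell and 27.3% rose. The edgeR test against NC gave an unadjusted p under 0.05 for 2 of the 11, which held for 60.3% of all genes, and DESeq2 called 0 in either direction, against 52.3% of all genes. Sqle, squalene epoxidase, had 43.4, 41.4 and 40.4 CPM in OE_LncFirre, 52.5, 62.8 and 47.6 CPM in VC and 46.0, 48.2 and 46.1 CPM in NC. It was lowest in the OE_LncFirre libraries throughout, falling by 0.38 against VC (SE 0.08, adjusted p = 9.52e-05) and 0.26 without VC replicate 2 (adjusted p = 0.00224). Against NC its -0.17 did not pass (adjusted p = 0.0675), and did with VC replicate 2 or 3 left out of the common fit (adjusted p = 0.0274 and 0.0456). Lss, lanosterol synthase, averaged 30.9 ± 1.7 CPM in OE_LncFirre, 36.7 ± 6.6 CPM in VC and 34.8 ± 0.72 CPM in NC (SD, n = 3 each). Sc5d, a sterol desaturase, averaged 43.5 ± 2.1 CPM in OE_LncFirre, 53.8 ± 9.8 CPM in VC and 49.0 ± 3.1 CPM in NC (SD, n = 3 each). Both fell against VC, by 0.25 and 0.31, and without VC replicate 2 stood at -0.09 (adjusted p = 0.346) and -0.15 (adjusted p = 0.0789).

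Cyp51, which removes a methyl group from lanosterol, had 96.1, 88.6 and 99.1 CPM in OE_LncFirre, 96.8, 126.0 and 102.9 CPM in VC and 84.8, 88.1 and 85.8 CPM in NC. Its OE_LncFirre libraries overlapped VC and lay just above NC. Cyp51 and the methylsterol oxidase Msmo1 each fell by 0.20 against VC (adjusted p = 0.0290 and 0.0177), and without VC replicate 2 stood at -0.08 (adjusted p = 0.297) and -0.09 (adjusted p = 0.260). The calls of Lss, Sc5d, Cyp51 and Msmo1 were also lost without OE_LncFirre replicate 2 (-0.20, -0.27, -0.15 and -0.15, adjusted p = 0.108 to 0.158). Without OE_LncFirre replicate 1, Sc5d and Cyp51 were lost (adjusted p = 0.0573 and 0.0741), without replicate 3 Lss (0.0574), and without any NC library Cyp51 (0.0522 to 0.0553). Hsd17b7, a sterol ketoreductase, averaged 27.9 ± 0.68 CPM in OE_LncFirre, 28.4 ± 4.3 CPM in VC and 23.7 ± 2.8 CPM in NC (SD, n = 3 each), and rose by 0.23 against NC (adjusted p = 0.0415). That call was lost when any OE_LncFirre library, VC replicate 1 or NC replicate 3 was left out (0.14 to 0.26, adjusted p = 0.0533 to 0.235). The other 5 genes, Fdft1 (squalene synthase), Tm7sf2 (a sterol reductase), Nsdhl (a sterol dehydrogenase), Ebp (a sterol isomerase) and Dhcr7 (a late-acting sterol reductase), passed in neither comparison. Their log2 fold changes were -0.06 to 0.07 against VC, 0.04 to 0.13 without VC replicate 2 and 0.03 to 0.10 against NC. Tm7sf2 shares 532 exonic bases with its same-strand neighbour Vps51 and Fdft1 shares 774 with Ctsb on the other strand, so their counts are uncertain. The same holds for other genes of the 31. Exonic bases are shared with the other strand in Scap (985), Hmgcs1 (557), Lss (381), Idi1 (323), Cyp51 (166), Srebf1 (109) and Elovl6 (34). On the same strand they are shared in Srebf1 (66) and Scd2 (61), besides Fdps.

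Against NC, the blank control, 12 of the 31 genes fell, 4 rose and 15 did not pass in OE_LncFirre, where 56.3% of all genes passed, 28.9% lower and 27.3% higher. The median was -0.17 over the 31 genes and -0.01 over all genes. All 3 OE_LncFirre libraries were below all NC libraries for 17 of the 31 genes, which held for 31% of all genes, and above them for 6, which held for 29.5%. Both comparisons share the OE_LncFirre libraries, so they are not independent. In both, 12 genes fell and 1, Pmvk, rose, and 0 had opposite calls. The shares of all genes with agreeing or opposite calls were not counted, so these counts cannot be read as particular to the 31 genes. With VC replicate 2 left out of the common fit, 17 fell and 6 rose against NC at nearly the same fold changes. In that fit 55.3% of all genes passed against NC, and 48.5% of those calls were higher. The added genes were Sqle, Lss, Sc5d, Insig1 and Elovl6 lower, and Hmgcs1 and Cyp51 higher. These calls came with a library left out for its values in the same genes, so they are descriptive. By role, the calls against NC were 3 lower and 3 higher of 7 mevalonate genes, 0 lower and 1 higher of 11 from squalene to cholesterol, 2 lower of 4 SREBP control genes, 4 lower of 6 fatty acid genes and 3 lower of 3 transport genes. The number called higher against NC fell to 2 without OE_LncFirre replicate 1 or NC replicate 2, and to 1 without OE_LncFirre replicate 2 or NC replicate 3.

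**Figure D4:**
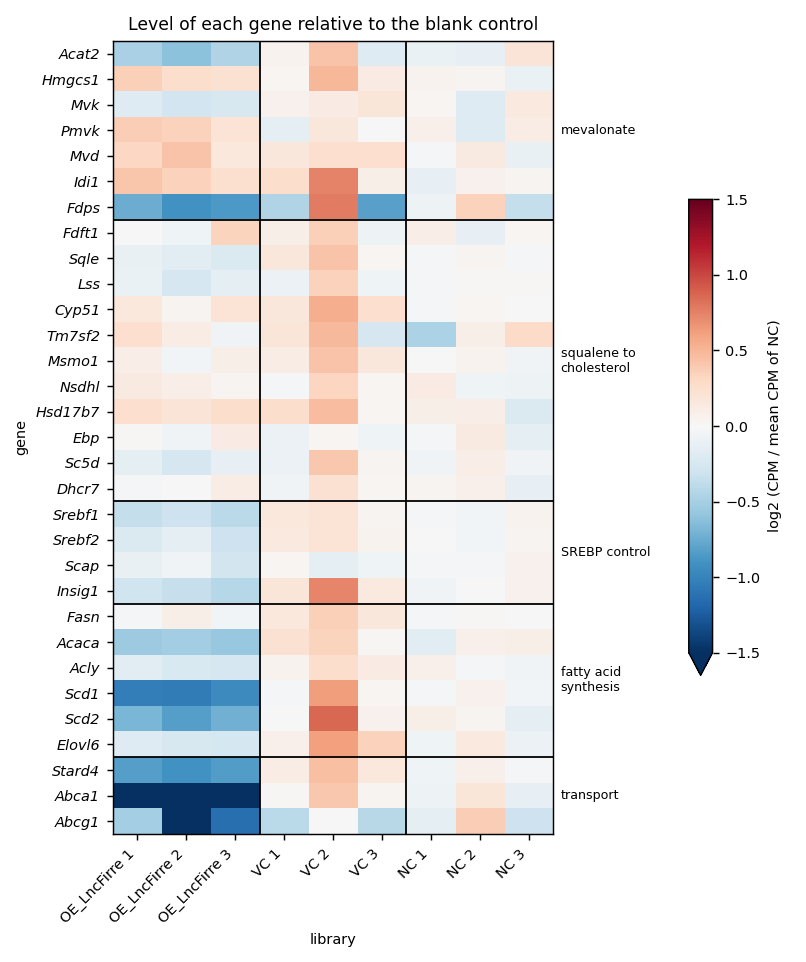
Level of each of the 31 genes in each library as log2 of its CPM over the mean CPM of NC (red higher, blue lower, values beyond -1.5 at the end of the scale), with libraries running OE_LncFirre, VC, NC and genes ordered by role. The OE_LncFirre columns are blue for SREBP control, most fatty acid synthesis and transport genes, and the VC 2 column is red for nearly all genes.

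AAV9-VC was then set against the blank control. In VC against NC, edgeR called 0 of the 31 genes, where 0.0576% of all genes passed (0.0064% higher and 0.0512% lower), and 14 of the 31 had an unadjusted p under 0.05, which held for 8.51% of all genes. DESeq2 called 1 of the 31, Fasn, and 2.95% of all genes. The log2 fold change was positive for 28 of the 31 genes with a median of 0.16, and negative for Abcg1, Scap and Ebp. All 3 VC libraries were above all 3 NC libraries for 8 of the 31, which held for 6.21% of all genes, and below them for 0, which held for 6.87%. The most apart by p was Fasn, with 258.4, 296.3 and 259.9 CPM in VC and 228.5, 233.4 and 232.4 CPM in NC (log2 fold change 0.23, adjusted p = 0.117). Cyp51 followed with 0.33 (adjusted p = 0.145), and was called without VC replicate 1 (0.41, adjusted p = 0.0292). Without VC replicate 2 the median of the 31 genes was 0.08 with 0 calls, and the log2 fold change was negative for 10 of them. Scd2 then stood at 0.04 and Scd1 at 0.00, against 0.36 and 0.24 with that library. The counts above by unadjusted p and by separation of the libraries include VC replicate 2.

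Levels of different genes were compared per length, as TPM (transcripts scaled to depth and to the union of exons). TPM were not TMM-adjusted, so they serve to order genes within a group. Between groups they can differ from CPM: Hmgcs1 averaged 115.5 CPM in OE_LncFirre and 111.7 CPM in VC, but 74.5 and 78.4 TPM. In OE_LncFirre the highest were Hmgcs1 at 74.5 ± 3.5, Scd2 at 72.1 ± 2.8, Cyp51 at 63.4 ± 3.0, Fasn at 62.9 ± 3.9, Srebf2 at 60.8 ± 4.1 and Acly at 60.7 ± 1.6 TPM (SD, n = 3 each). In VC these 6 genes were at 78.4 ± 14.4 (Hmgcs1), 168.9 ± 60.3 (Scd2), 79.3 ± 11.5 (Cyp51), 79.97 ± 6.7 (Fasn), 85.0 ± 5.0 (Srebf2) and 85.3 ± 6.7 TPM (Acly). In NC they were at 65.0 ± 4.5 (Hmgcs1), 127.9 ± 11.6 (Scd2), 61.4 ± 2.0 (Cyp51), 66.4 ± 1.4 (Fasn), 75.3 ± 1.0 (Srebf2) and 74.9 ± 3.8 TPM (Acly). Scd2 thus led in VC and NC, and in OE_LncFirre it lay within the spread of Hmgcs1. Scd1 was at 22.2 ± 0.63 TPM in OE_LncFirre, 57.8 ± 15.7 TPM in VC and 47.6 ± 2.7 TPM in NC, which is rank 18 of 31 in OE_LncFirre, 8 in VC and 7 in NC. At the low end Abca1 was at 1.80 ± 0.24 TPM in OE_LncFirre, 11.4 ± 1.8 TPM in VC and 9.89 ± 1.3 TPM in NC, and Abcg1 and Fdps were under all other genes in each group.

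**Figure D5:**
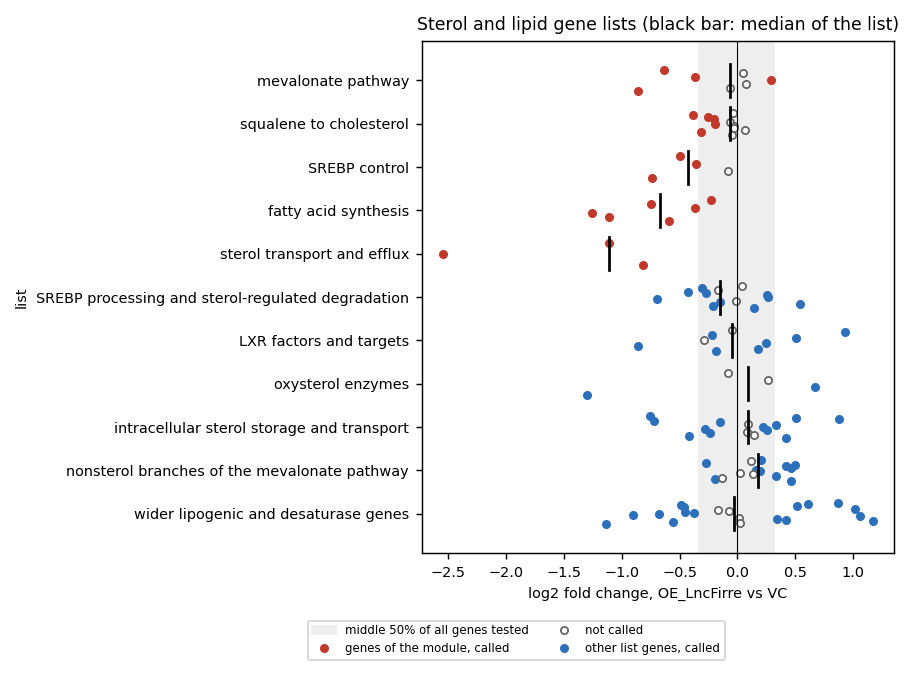
Log2 fold change of OE_LncFirre over VC for the genes of each list: red and blue points passed the adjusted p threshold, open points did not, black bars are list medians and the grey band is the interquartile range of all genes tested, -0.33 to 0.32. The upper 5 lists are the 31 genes by role, and their transport, fatty acid and SREBP control medians lie left of the band.

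Genes around the programme moved in both directions against VC, and the counts of each list below stand beside 27.5% higher and 28.4% lower of all genes (25% and 26.1% without VC replicate 2). Of 13 tested genes for SREBP processing and sterol-regulated degradation 4 rose and 6 fell (median -0.15), and 4 and 5 without VC replicate 2. Among them Rnf145, an LXR-induced ubiquitin ligase that targets Scap, had 25.8, 26.6 and 25.1 CPM in OE_LncFirre, 37.1, 44.7 and 43.8 CPM in VC and 40.5, 40.7 and 40.5 CPM in NC, a log2 fold change of -0.70 (adjusted p = 1.63e-09). Mbtps1, the site-1 protease that cleaves SREBPs, fell by 0.30. Of 9 tested LXR factors and targets 4 rose and 3 fell (median -0.05), also without VC replicate 2. Nr1h3, which encodes LXR-alpha, rose, with 16.2, 13.6 and 13.4 CPM in OE_LncFirre, 5.70, 7.76 and 9.18 CPM in VC and 6.45, 6.14 and 8.29 CPM in NC (log2 fold change 0.93, adjusted p = 3.12e-06). The OE_LncFirre libraries lay above all VC and NC libraries, and the direction was opposite to that of the LXR targets Abca1, Abcg1 and Arl4c (-0.86). Rxrb, a partner receptor of LXR, rose by 0.50, and Lpcat3, an LXR-induced phospholipid acyltransferase, by 0.25.

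Of 4 tested oxysterol enzymes 1 rose and 1 fell (median 0.09). Ch25h, which makes the SREBP-suppressing 25-hydroxycholesterol, had 53.3, 54.7 and 55.6 CPM in OE_LncFirre, against 56.0, 56.7 and 60.6 CPM in VC and 67.8, 56.3 and 60.8 CPM in NC. The OE_LncFirre libraries lay just below all VC and NC libraries. The log2 fold change of -0.08 did not pass against VC (adjusted p = 0.280), while -0.17 passed against NC (adjusted p = 0.0231). That call was lost without OE_LncFirre replicate 1 or 2 or NC replicate 1 (-0.17 to -0.10, adjusted p = 0.0592 to 0.226). Cyp7b1, which hydroxylates oxysterols, fell by 1.30 from a low level (under 2 CPM in all libraries), Cyp46a1, a cholesterol hydroxylase, rose by 0.67, and Cyp27a1, the mitochondrial sterol hydroxylase, did not pass (0.26). The call of Cyp46a1 was lost without OE_LncFirre replicate 1 or 2 or VC replicate 1 or 2 (0.54 to 0.67, adjusted p = 0.0629 to 0.133). Of 15 genes of sterol storage and transport 6 rose and 6 fell (median 0.09), and 4 and 5 without VC replicate 2. Soat1, which esterifies cholesterol for storage, fell by 0.75 and Lipa, the lysosomal lipase that frees it, by 0.72, while Nceh1, a cholesteryl ester hydrolase, rose by 0.88 and Tspo, a mitochondrial outer membrane protein, by 0.42.

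The nonsterol branches of the pathway, which use its isoprenoids, had 8 higher and 2 lower of 14 genes (median 0.18), and 6 and 2 without VC replicate 2. Coq2 and Pdss1, enzymes of coenzyme Q synthesis, rose by 0.47 and 0.49, and Rabggtb, a subunit of Rab geranylgeranyl transferase, by 0.33, while Nus1, a subunit of the dolichol-making prenyltransferase, fell by 0.27. Of 20 wider lipogenic genes 8 rose and 8 fell (median -0.03), and 9 and 8 without VC replicate 2. Gpam, the mitochondrial enzyme that starts triglyceride synthesis, had 172.7, 170.2 and 161.4 CPM in OE_LncFirre, 77.9, 85.2 and 79.0 CPM in VC and 72.3, 77.5 and 74.7 CPM in NC (log2 fold change 1.06, SE 0.05, adjusted p = 8.70e-17). Dgat2, which completes triglycerides, rose by 1.17. Acacb, the mitochondrial acetyl-CoA carboxylase, whose malonyl-CoA restrains fatty acid oxidation, had 191.7, 207.9 and 176.0 CPM in OE_LncFirre, 116.1, 101.1 and 98.1 CPM in VC and 85.9, 90.4 and 90.9 CPM in NC. It rose by 0.87 (SE 0.06, adjusted p = 4.21e-12), opposite to its cytosolic relative Acaca. Fads1, a desaturase of polyunsaturated fatty acids, fell by 0.68 (adjusted p = 4.10e-11). Of the genes named in these lists, Cyp46a1 was the only 1 whose call against VC changed when any single library was left out.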

How the data were processed

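RNA was measured in 9 libraries. Per the labels' protocols, RNA of isolated cardiomyocytes was rRNA-depleted, made into directional libraries and read as 150-bp pairs; the molecule field says polyA RNA, so the selection is unclear. Per the submitters' processing notes, FastQC, Trimmomatic, STAR and featureCounts were used with mm10, without versions. The authors deposited raw, unnormalized counts per Ensembl gene. Lines naming no gene (16.3% to 17.4% of all counts) were left out. Those lines are in the style of HTSeq, another counting program, so which program made the counts is not settled. How reads shared between genes were treated is therefore not known. Whether counting used strand is not stated, so overlapping genes are uncertain. Symbols, coordinates and exon lengths came from GENCODE M21, which held 55227 of the 55487 identifiers.

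The main test was edgeR 4.0.16's quasi-likelihood F test (R 4.3.3, robust, TMM, filterByExpr with minimum count 10 and minimum total 15), with all 9 libraries in 1 fit (6 residual degrees of freedom), no covariates and Benjamini-Hochberg adjustment over 15633 genes at 0.05. SE is the size of the log2 fold change divided by the root of its F statistic. CPM are counts over TMM-adjusted library size. Within-library ratios used exact permutation tests. Alternatives were other scaling factors, DESeq2 1.42.0, other filters, 2-group fits, a replicate block, a threshold of 0.01 and leaving out each library. Replicates of a group differed by more than counting noise (chi-square per degree of freedom 3.27 to 7.39).

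The 31 genes and the other lists were chosen with earlier results of these data known. Of 164 list entries 163 had an identifier. All 31 genes are reported; from each other list the up to 4 tested genes with the smallest p against VC are named, plus Firre and Ch25h; some genes this rule picks are not reported here. C1qa was named after its values were seen. Promoter sequences are RefSeq's (GRCm38.p6).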

Additional observations from a re-analysis of the deposited data

How the results depend on the processing

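Of the 20 genes that fell against VC, 14 were called under all 19 alternatives, as were 9 of the 12 that fell against NC; 0 of the genes that rose were. No log2 fold change called in the main test changed sign. The number higher against VC was 0 with library totals only and 0 at a threshold of 0.01 (main 1), and that against NC was 2 and 0 (main 4). In VC against NC, DESeq2 called 1 gene higher and the fit without a low-count filter 6 (main 0); the cause was not tested. With 1 library left out, 0 to 2 genes were higher and 14 to 20 lower against VC, 1 to 6 higher and 9 to 17 lower against NC, and 0 to 1 higher and 0 lower in VC against NC. The Srebf1 to Srebf2 ratio in VC against NC, -0.00, ranged over -0.00946 to 0.00666 and turned positive without VC replicate 3 (0.00666) or NC replicate 3 (0.00543). No pairing by replicate number was visible: correlations of same-numbered deviations were -0.04 to 0.03, against -0.05 to 0.06 for different numbers. Whether same-numbered libraries share an animal, culture or batch cannot be told from these values. With the number as a replicate block, 1 gene was higher and 19 lower against VC, 5 and 12 against NC, and 0 in VC against NC. Library totals moved the median of all genes to -0.05 and the share higher among calls against VC to 42.2% (main 49.2%). Depth limited Fdps (17 to 59 counts) and Abcg1 (22 to 94).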
